A study of Homo sapiens with 6 samples.

Results

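The genes described here supply or remove the deoxynucleotides (dNTPs) from which DNA is made. They are the 3 ribonucleotide reductase subunits RRM1, RRM2 and RRM2B, the thymidylate genes TYMS, TK1, DUT and DTYMK, the salvage kinase DCK and the dNTP hydrolase SAMHD1. The 9 were chosen by symbol and not by a threshold, but with earlier results of these data known. Each matched 1 row of the 20289 genes in the deposited table. All 9 were among the 10592 genes tested. RKO is an established human colorectal cancer line. The shTRMT6 group (n = 3 libraries) carried a short hairpin RNA against TRMT6, and the shControl group (n = 3) a control hairpin; no drug or other agent is given in the labels. TRMT6 is a subunit of the enzyme that methylates adenosine in tRNA. The labels do not say whether replicates were separate cultures or how many hairpins or clones were used, so p-values reflect the scatter of these libraries alone, and that scatter may be technical.

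Ribonucleotide reductase converts ribonucleotides to deoxyribonucleotides and sets the pace of dNTP synthesis. Its large subunit, RRM1, holds the catalytic and regulatory sites, and it pairs with either of 2 small subunits that carry the radical needed for the reaction. RRM2 is the small subunit of S phase, and its protein is degraded outside S phase, whereas RRM2B is induced by p53 and serves DNA repair and mitochondrial DNA outside S phase. Thymidine nucleotides have their own branch: DUT makes dUMP from dUTP, TYMS methylates dUMP to dTMP with a folate cofactor, TK1 makes dTMP from salvaged thymidine, and DTYMK phosphorylates dTMP to dTDP.

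The knockdown was checked first. TRMT6 read 1.58, 1.73 and 1.09 FPKM in the shTRMT6 libraries, against 14.43, 17.96 and 16.85 FPKM in the shControl libraries, 11.2-fold lower in shTRMT6 (limma adjusted p = 4.33e-08). FPKM counts fragments per kilobase of transcript, scaled to the fragments of the library. Depth estimated from the steps between low values was roughly 18000000 to 19800000 fragments per shTRMT6 library and 20000000 to 28200000 per shControl library. Of 10 markers of colorectal epithelium 4 reached 1 FPKM in every library (KRT18, KRT8, EPCAM and CDX2), while CDH1, VIL1 and KRT19 were listed at 0 throughout; the summed level of the list was 201 to 213.6 FPKM in shTRMT6 and 123.6 to 156.1 FPKM in shControl, and EPCAM and KRT18 passed the test as higher in shTRMT6. Of 10 markers of other cell types, VIM and CD68 reached 1 FPKM in every library. The summed level of that list was 746.2 to 1003 FPKM in shTRMT6 and 695.4 to 819.3 FPKM in shControl, nearly all of it CD68, and the leukocyte marker PTPRC did not exceed 0.02 FPKM. ALB, a liver gene, did not exceed 0.04 FPKM in shTRMT6 and read 10.74 FPKM in shControl replicate 2 and 0 FPKM in the other shControl libraries. The part of these markers in the results was not tested. Against transcript GC content, the log2 level of a library relative to the 6-library mean had a slope per 10 points of -0.15 to -0.02 in shTRMT6 and of 0.22, -0.0046 and 0.03 in shControl replicates 1, 2 and 3. shControl replicate 1 stood apart from the rest. GC-corrected values are given for part of the genes, and a gene without one may also move with the correction.

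Of the 9 genes, 3 rose in shTRMT6 (RRM2B, SAMHD1 and RRM1), 5 fell (DTYMK, TYMS, TK1, DUT and RRM2), and DCK did not pass the test (limma on log2(FPKM + 1), adjusted p under 0.05 over all genes tested). Over all genes tested 35.4% passed, 19.3% higher and 16.1% lower. The groups did not overlap for 8 of the 9 genes, against 48.3% of all genes tested. Because the set was chosen with earlier results known, these counts describe it and are not a test. The median log2 fold change of the 9 was -0.29, beside 0.02 for all genes tested. Since these are bulk libraries, fewer cells in S phase and less of a transcript per cell cannot be told apart. Over 17 alternative settings 2 or 3 of the 9 rose and 4 or 5 fell, since the calls of RRM1 and RRM2 depend on the setting.

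**Figure D1:**
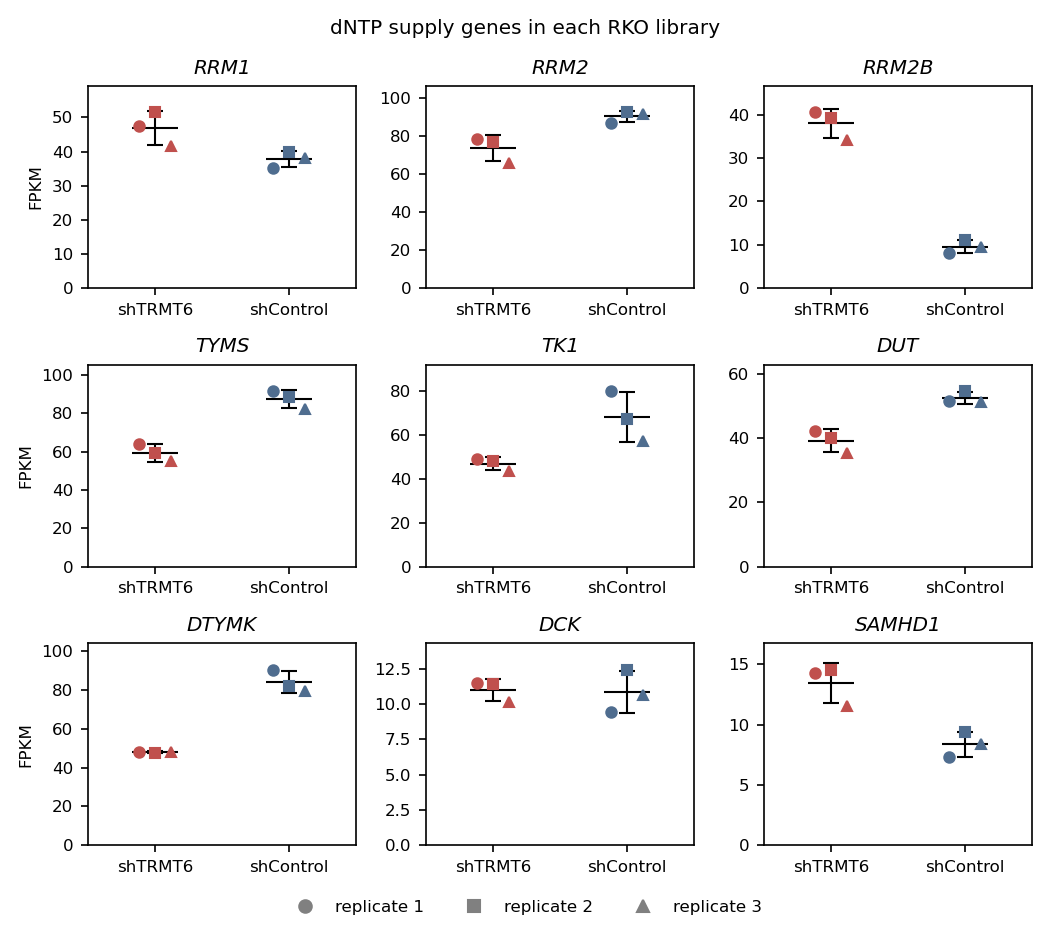
FPKM of each gene (vertical axes, each from 0) in the 3 shTRMT6 and 3 shControl libraries; symbols mark the replicate number, horizontal bars the mean and error bars the SD. RRM2B lies between 34.07 and 40.5 FPKM in shTRMT6 and between 8.15 and 11.05 FPKM in shControl; the groups overlap for DCK alone.

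The p53-induced small subunit showed the largest change of the set. RRM2B (ENSG00000048392; chromosome 8, bases 102204502 to 102239118, minus strand; all gene positions are from GENCODE release 29 on GRCh38) read 40.5, 39.27 and 34.07 FPKM in shTRMT6, against 8.15, 11.05 and 9.4 FPKM in shControl. Every shTRMT6 library was above every shControl library. The mean was 37.95 ± 3.41 FPKM in shTRMT6 and 9.53 ± 1.46 FPKM in shControl (SD, n = 3 each), 3.98-fold higher in shTRMT6. On the log2 scale the difference was 1.89 (SE 0.12, 95% interval 1.63 to 2.15, limma adjusted p = 6.23e-07), which ranked 9th from the highest and 11th by absolute size among 10592 genes. No 75-base window of its longest transcript occurred in another annotated gene. Its transcript is the poorest in GC of the 9 genes (36.4%), and the GC correction lowered the log2 fold change to 1.66.

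The S phase small subunit changed less and in the other direction. RRM2 (ENSG00000171848; chromosome 2, bases 10120698 to 10131419, plus strand) read 78.26, 76.56 and 65.88 FPKM in shTRMT6, against 86.9, 92.26 and 91.3 FPKM in shControl. All shTRMT6 libraries were below all shControl libraries. The mean was 73.6 ± 6.71 FPKM in shTRMT6 and 90.15 ± 2.86 FPKM in shControl (SD, n = 3 each), 1.23-fold lower in shTRMT6, with a log2 fold change of -0.29 (SE 0.10, 95% interval -0.50 to -0.09, limma adjusted p = 0.0304). The direction was the same under all 17 alternatives, but the call ended under 6 of them. The limma adjusted p was 0.0545, 0.0593 and 0.0823 without shTRMT6 replicate 1, 2 or 3, 0.0926 and 0.0772 without shControl replicate 2 or 3, and 0.0512 with no trend in the variance prior. The call held under the other 11. Among them were the GC correction (log2 fold change -0.36, limma adjusted p = 0.00426) and the replicate block (limma adjusted p = 0.00372). In the annotation 28.0% of the windows of the longest RRM2 transcript also occur in other genes, nearly all in the readthrough gene AC007240.1.

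Set side by side within each library, on the per-length FPKM scale, the balance of the small subunits differed between the groups. RRM2 exceeded RRM2B by 1.93-fold, 1.95-fold and 1.93-fold in shTRMT6, against 10.7-fold, 8.35-fold and 9.71-fold in shControl. The spread was narrow in shTRMT6, where RRM2B made up 34.03% ± 0.113 of the RRM2 and RRM2B sum, against 9.53% ± 1.08 in shControl (SD, n = 3 each). On the log2 scale RRM2B minus RRM2 was 2.19 higher in shTRMT6 than in shControl (exact two-sided permutation p = 0.1, the smallest that 3 libraries against 3 allow). RRM2B remained below RRM2 in every library. The sum of both read 118.8, 115.8 and 99.95 FPKM in shTRMT6, against 95.05, 103.3 and 100.7 FPKM in shControl. The sums overlapped between the groups, with a mean of 111.5 ± 10.1 FPKM in shTRMT6 and 99.7 ± 4.22 FPKM in shControl (exact two-sided permutation p = 0.3).

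**Figure D2:**
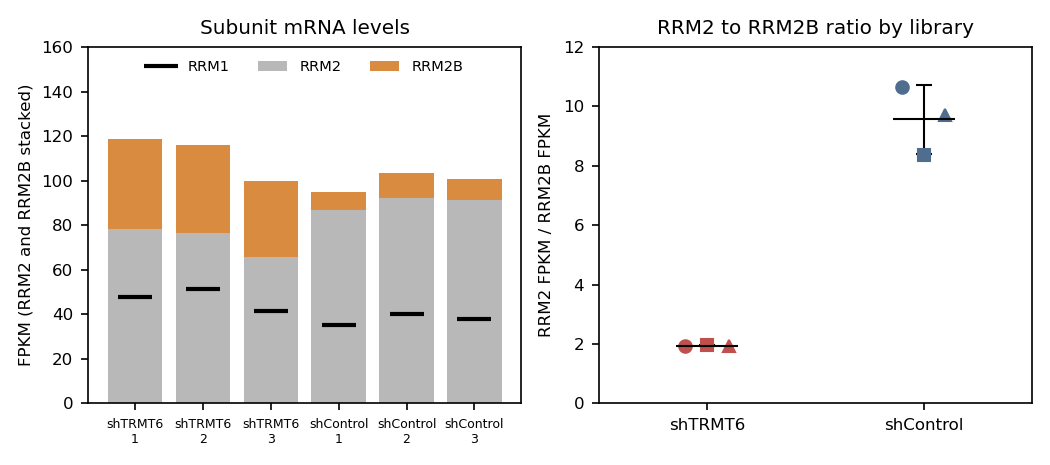
Left, FPKM of RRM2 and RRM2B stacked per library, with RRM1 as a black bar; right, the RRM2 to RRM2B ratio of FPKM values per library with the mean and SD of each group (symbols mark replicates 1, 2 and 3 as circle, square and triangle). The ratio is 1.93 to 1.95 in the shTRMT6 libraries and 8.35 to 10.7 in the shControl libraries.

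The large subunit was slightly higher in shTRMT6. RRM1 (ENSG00000167325; chromosome 11, bases 4094707 to 4138876, plus strand) read 47.53, 51.5 and 41.51 FPKM in shTRMT6, against 35.32, 39.97 and 37.99 FPKM in shControl. The groups did not overlap, with shTRMT6 replicate 3 just above shControl replicate 2. The mean was 46.85 ± 5.03 FPKM in shTRMT6 and 37.8 ± 2.33 FPKM in shControl (SD, n = 3 each), 1.24-fold higher in shTRMT6 (log2 fold change 0.30, SE 0.10, 95% interval 0.07 to 0.53, limma adjusted p = 0.04). This call ended under 10 of the 17 alternatives. The limma adjusted p was 0.127 and 0.183 without shTRMT6 replicate 1 or 2 and 0.0793, 0.0504 and 0.0784 without shControl replicate 1, 2 or 3. It was 0.0693 with no filter on low values, 0.0561 with median-of-ratios scaling and 0.0571 with no trend in the variance prior. The GC correction lowered the log2 fold change to 0.15 (limma adjusted p = 0.146, or 0.056 with the replicate block as well). Per unit of the small-subunit sum, RRM1 was 0.42 ± 0.0226 in shTRMT6 and 0.379 ± 0.00773 in shControl (SD, n = 3 each), without overlap (exact two-sided permutation p = 0.1, the smallest possible).

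All 4 thymidylate genes fell in shTRMT6. DTYMK (ENSG00000168393; chromosome 2, bases 241675742 to 241686991, minus strand) read 48.36, 47.52 and 48.27 FPKM in shTRMT6, against 90.67, 82.43 and 79.73 FPKM in shControl. It was the steepest fall of the set: the mean was 48.05 ± 0.461 FPKM in shTRMT6 and 84.3 ± 5.7 FPKM in shControl (SD, n = 3 each), 1.75-fold lower in shTRMT6 (log2 fold change -0.80, SE 0.09, 95% interval -0.99 to -0.60, limma adjusted p = 7.33e-05). With the GC correction the DTYMK log2 fold change was -0.62, still past the threshold. Its shTRMT6 libraries were the most alike of any gene in the set. TYMS (ENSG00000176890; chromosome 18, bases 657604 to 673578, plus strand), the target of fluoropyrimidine drugs, read 63.96, 58.98 and 54.91 FPKM in shTRMT6, against 91.58, 88.19 and 82.4 FPKM in shControl. The mean was 59.3 ± 4.53 FPKM in shTRMT6 and 87.4 ± 4.64 FPKM in shControl (SD, n = 3 each), 1.47-fold lower in shTRMT6 (log2 fold change -0.55, SE 0.10, 95% interval -0.76 to -0.35, limma adjusted p = 0.000931), with no overlap. The 3' end of TYMS overlaps ENOSF1 on the opposite strand, and 751 of 1588 windows of its longest transcript occur there on either strand. The strand setting of the libraries was not given in the sources used here, so reads from the shared part cannot be told apart. ENOSF1 averaged 3.87 ± 0.27 FPKM in shTRMT6 and 6.87 ± 0.445 FPKM in shControl (SD, n = 3 each; log2 fold change -0.69, limma adjusted p = 0.000729).

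The thymidine salvage kinase and the dUTP hydrolase were lower as well. TK1 (ENSG00000167900; chromosome 17, bases 78174075 to 78187233, minus strand), made mainly in S phase, read 49.08, 48.18 and 43.33 FPKM in shTRMT6, against 79.87, 66.96 and 57.18 FPKM in shControl. The groups did not overlap, and the mean was 46.9 ± 3.09 FPKM in shTRMT6 and 68 ± 11.4 FPKM in shControl (SD, n = 3 each), the widest spread of the set. TK1 was 1.45-fold lower in shTRMT6 (log2 fold change -0.52, SE 0.12, 95% interval -0.77 to -0.26, limma adjusted p = 0.00504). Its transcript is the richest in GC of the 9 (62.8%), and the log2 fold change was -0.33 with the GC correction, past the threshold, and -0.40 without shControl replicate 1, the library with the highest TK1 value. DUT (ENSG00000128951; chromosome 15, bases 48331011 to 48343373, plus strand) read 42.38, 40.02 and 35.41 FPKM in shTRMT6, against 51.68, 54.78 and 51.31 FPKM in shControl. No shTRMT6 library reached the lowest shControl library; the mean was 39.3 ± 3.54 FPKM in shTRMT6 and 52.6 ± 1.91 FPKM in shControl (SD, n = 3 each), 1.34-fold lower in shTRMT6 (log2 fold change -0.42, SE 0.10, limma adjusted p = 0.00596), and -0.53 with the GC correction. An antisense gene, AC023355.1, shares 14.4% of the windows of the longest DUT transcript.

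Because these 4 genes and RRM2 fell together, their promoters are shown: 250 bases before to 50 bases from the annotated start, from RefSeq (GRCh38.p14), written 5' to 3' along each gene's strand, at the start farthest downstream where several are listed. Entries were found for 8 of the 9 genes, all but RRM2B. Capitals mark exact matches on either strand to the CCAAT box (CCAAT) or to 4 words of the E2F consensus (TTTCCCGC, TTTCGCGC, TTTGCCGC and TTTGGCGC); no 2 matches overlap.
RRM2 (chr2:10122489-10122788, plus strand): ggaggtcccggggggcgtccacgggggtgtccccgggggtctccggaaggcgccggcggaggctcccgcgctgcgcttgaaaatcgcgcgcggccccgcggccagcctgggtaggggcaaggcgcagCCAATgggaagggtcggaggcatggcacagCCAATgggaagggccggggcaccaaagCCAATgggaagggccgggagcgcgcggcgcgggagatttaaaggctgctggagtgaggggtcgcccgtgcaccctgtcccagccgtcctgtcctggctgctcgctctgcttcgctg
TYMS (chr18:657403-657702, plus strand): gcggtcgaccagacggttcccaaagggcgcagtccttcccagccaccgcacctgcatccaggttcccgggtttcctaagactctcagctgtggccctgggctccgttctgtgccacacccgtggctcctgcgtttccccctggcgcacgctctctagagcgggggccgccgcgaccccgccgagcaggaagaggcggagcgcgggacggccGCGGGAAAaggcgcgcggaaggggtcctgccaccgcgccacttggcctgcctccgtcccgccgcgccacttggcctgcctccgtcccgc
TK1 (chr17:78187003-78187302, minus strand): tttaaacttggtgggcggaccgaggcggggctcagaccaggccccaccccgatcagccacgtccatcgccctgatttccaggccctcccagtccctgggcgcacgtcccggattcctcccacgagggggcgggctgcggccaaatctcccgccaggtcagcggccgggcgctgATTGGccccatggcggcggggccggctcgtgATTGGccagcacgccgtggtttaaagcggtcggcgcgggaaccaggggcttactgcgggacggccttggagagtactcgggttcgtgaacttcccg
DUT (chr15:48331947-48332246, plus strand): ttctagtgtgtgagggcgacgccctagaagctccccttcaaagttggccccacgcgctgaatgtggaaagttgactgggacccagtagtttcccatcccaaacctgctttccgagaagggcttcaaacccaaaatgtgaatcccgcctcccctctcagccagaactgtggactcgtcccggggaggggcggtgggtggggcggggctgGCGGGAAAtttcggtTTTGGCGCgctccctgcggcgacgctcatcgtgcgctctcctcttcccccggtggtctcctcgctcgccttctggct
DTYMK (chr2:241686766-241687065, minus strand): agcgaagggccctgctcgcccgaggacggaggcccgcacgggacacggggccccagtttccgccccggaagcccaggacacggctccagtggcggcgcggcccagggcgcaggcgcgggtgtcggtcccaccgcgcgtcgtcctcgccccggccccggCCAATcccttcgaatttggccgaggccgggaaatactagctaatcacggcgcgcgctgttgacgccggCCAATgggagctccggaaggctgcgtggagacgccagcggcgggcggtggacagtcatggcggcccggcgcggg
RRM2 held 3 CCAAT boxes, at -123 to -119, -93 to -89 and -66 to -62 from the start, TK1 and DTYMK held 2 each, and none of these 3 windows held an E2F word. TYMS held 1 E2F word at -39 to -32, and DUT held 2, at -42 to -35 and -27 to -20, with no CCAAT box in either window. Over 35116 promoter windows of the same length, 34.6% held at least 1 CCAAT box, 10.8% at least 2 and 3.26% at least 3, while 3.31% held at least 1 of the E2F words. The genes that did not fall and had an entry were not without matches. SAMHD1 held 2 CCAAT boxes, RRM1 held 1, and DCK held 1 E2F word, past the start at 21 to 28. These are matches of letters, not measured binding sites.

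The remaining pair act on nucleosides and finished dNTPs. SAMHD1 (ENSG00000101347; chromosome 20, bases 36889773 to 36951901, minus strand), which hydrolyses dNTPs to nucleosides, read 14.29, 14.56 and 11.53 FPKM in shTRMT6, against 7.31, 9.36 and 8.43 FPKM in shControl. The lowest shTRMT6 library was above the highest shControl library, and the mean was 13.5 ± 1.68 FPKM in shTRMT6 and 8.37 ± 1.03 FPKM in shControl (SD, n = 3 each). SAMHD1 was 1.61-fold higher in shTRMT6 (log2 fold change 0.63, SE 0.13, 95% interval 0.36 to 0.90, limma adjusted p = 0.00228), and its call held under all 17 alternatives. DCK (ENSG00000156136; chromosome 4, bases 70992538 to 71030914, plus strand), the first kinase of deoxycytidine, deoxyadenosine and deoxyguanosine salvage, read 11.49, 11.46 and 10.13 FPKM in shTRMT6, against 9.47, 12.46 and 10.63 FPKM in shControl. The shTRMT6 values lay within the shControl range (log2 fold change 0.03, SE 0.12, 95% interval -0.23 to 0.28, limma adjusted p = 0.884), which leaves room for a change of up to 0.28 in log2. With the GC correction the value was -0.19 (limma adjusted p = 0.0936).

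**Figure D3:**
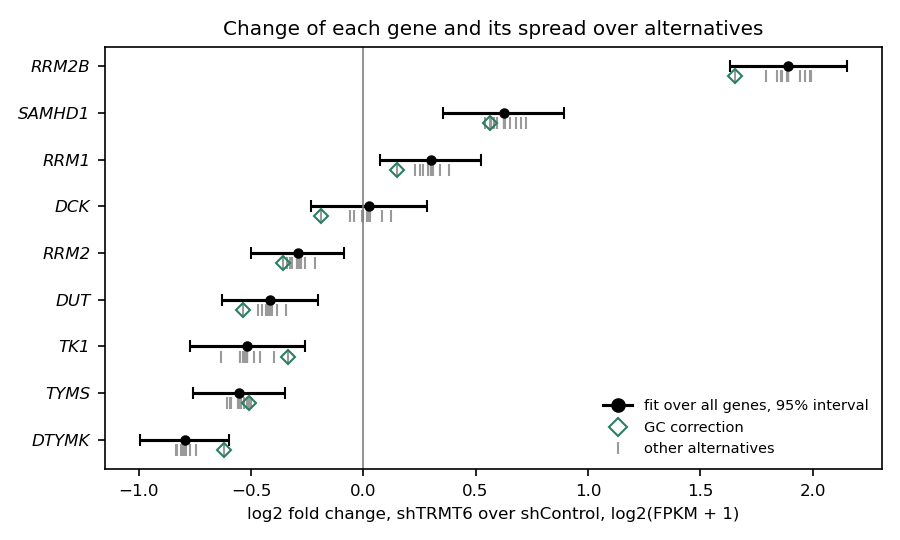
Log2 fold change of each gene, shTRMT6 over shControl, on the log2(FPKM + 1) scale: black points and bars give the fit over all genes with its 95% interval, green diamonds the GC-corrected value and gray ticks the other alternatives. RRM2B stands at 1.89 and DTYMK at -0.80; the values of RRM1 and RRM2 lie closest to 0 among the genes that passed, and those of DCK fall on both sides of 0.

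The order of mean levels, on the per-length FPKM scale, was alike at the top and differed lower down. In shTRMT6 it ran RRM2, TYMS, DTYMK, TK1, RRM1, DUT, RRM2B, SAMHD1 and DCK, from 73.6 to 11.0 FPKM. Neighbours from DTYMK through RRM2B overlapped in their library values, so RRM2B at 37.95 FPKM did not stand apart from DUT at 39.3 FPKM. In shControl the order was RRM2, TYMS, DTYMK, TK1, DUT, RRM1, DCK, RRM2B and SAMHD1, from 90.15 to 8.37 FPKM. There RRM2B overlapped its neighbours DCK and SAMHD1, and neighbours from RRM2 through TK1 overlapped as well. The shControl order at the top is therefore not fully resolved. DCK ranked last in shTRMT6 and above RRM2B and SAMHD1 in shControl, RRM1 ranked above DUT in shTRMT6 and below it in shControl, and no other pair changed order. Within shTRMT6, replicate 3 read lower than the group mean for 8 of the 9 genes, by 0.11 to 0.20 in log2, with DTYMK 0.006 above it.

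Genes whose pattern was most like that of each small subunit were taken by Pearson's r of log2(FPKM + 1) over the 6 libraries. For RRM2B these were ADI1 (r = 0.9997), PDCD4, ZNF281, INTS10 and STK17A (r = 0.9986), all higher in shTRMT6, and 108 genes had an r of at least 0.99. For RRM2 they were SP1 (r = 0.991), ODF2, WEE1, RBBP9 and ZIC2 (r = 0.9862), of which WEE1 alone passed the test (16.5 FPKM in shTRMT6 and 26.3 FPKM in shControl on average, limma adjusted p = 0.00168). With the GC correction SP1 and RBBP9 passed too (limma adjusted p = 0.0222 and 0.00809). ODF2 passed under 4 of 17 alternatives, among them the replicate block (limma adjusted p = 0.0196), and ZIC2 under 1 of 16. With 2 groups of 3 libraries, any gene that differs between the groups correlates with these, so the values are descriptions. The r also takes in scatter within the groups, and for RRM2 most of the genes named did not pass in the main fit.

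The factors that control these genes were read beside them. E2F1, an activator of S phase genes, averaged 19.4 ± 0.0981 FPKM in shTRMT6 and 32.9 ± 4.95 FPKM in shControl (SD, n = 3 each), 1.70-fold lower in shTRMT6 (log2 fold change -0.73, limma adjusted p = 0.000482). CCNF, the cyclin F that marks RRM2 protein for destruction, was 1.56-fold lower in shTRMT6 (limma adjusted p = 0.00117), and MDM2, a ubiquitin ligase that is also in the list of p53 targets, 2.55-fold higher (limma adjusted p = 2.7e-05). In the list of 26 regulators 3 rose, 7 fell (11.5% and 26.9%) and 16 did not pass, with a median of -0.03. Over all genes tested 19.3% rose and 16.1% fell. With the GC correction 4 of the list rose and 10 fell. NFYA, a CCAAT-binding factor subunit named after its value was seen, was among those that rose (log2 fold change 0.55). NFYB and NFYC, of the same factor, did not pass in the main fit (log2 fold change 0.18 and -0.32, limma adjusted p = 0.246 and 0.0729).

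The p53 targets and S phase genes gave the context on each side. Of 26 tested p53 targets other than RRM2B, 23 (88.5%) rose and the other 3 did not pass, and the list's median was 0.78 in log2; RRM2B at 1.89 was above the highest of them, BBC3 at 1.45, and above MDM2 at 1.33 and FAS at 1.21. Of 36 E2F-driven replication genes 21 (58.3%) fell and the other 15 did not pass, with a median of -0.36; without shTRMT6 replicate 3, 16 fell and 1 rose. RRM2 at -0.29 and DUT at -0.42 lay near that median, and DTYMK at -0.80 lay below it. GINS1 (-1.02), POLD1 (-0.95) and MCM5 (-0.89) were the lowest. Both lists are known from earlier results on these data and are no independent evidence.

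Ribonucleotide reductase is re-reduced by thioredoxin and glutaredoxin. Of 9 genes of these systems 4 rose (44.4%), beside 19.3% of all genes tested. TXNRD1, the cytosolic thioredoxin reductase, averaged 116.8 ± 15.1 FPKM in shTRMT6 and 73.2 ± 8.63 FPKM in shControl (SD, n = 3 each), 1.59-fold higher in shTRMT6 (log2 fold change 0.66, limma adjusted p = 0.00105). GCLC, of glutathione synthesis, was 1.56-fold higher (limma adjusted p = 0.00092) and thioredoxin, TXN, 1.37-fold higher (limma adjusted p = 0.00229). The log2 fold change of TXN was 0.46, and 0.30 with the GC correction, still past the threshold. Named after their values were seen, GLRX2 also rose (log2 fold change 0.38), while GLRX, GSR, GCLM and TXN2 did not pass (limma adjusted p = 0.538, 0.507, 0.106 and 0.606). None of the 9 fell, but TXNRD2, the mitochondrial thioredoxin reductase, was called lower in the fit with the replicate block and without shControl replicate 2. The list's median was 0.24.

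Of 17 tested genes of salvage, nucleotidases and pool sanitation, 7 fell and 1 rose (41.2% and 5.88%), with a median log2 fold change of -0.09. ITPA, which removes deaminated purine nucleotides such as dITP from the pool, had the largest change: it averaged 19.0 ± 1.76 FPKM in shTRMT6 and 45.4 ± 5.42 FPKM in shControl (SD, n = 3 each), 2.39-fold lower in shTRMT6 (log2 fold change -1.21, limma adjusted p = 1.68e-05). The nucleoside transporter SLC29A1 was 1.5-fold lower (limma adjusted p = 0.00205), and NUDT1, which hydrolyses oxidised dGTP, 1.52-fold lower (limma adjusted p = 0.000998). The log2 fold changes of ITPA, SLC29A1 and NUDT1 were -1.21, -0.59 and -0.58. With the GC correction they were -1.04, -0.43 and -0.41, all still past the threshold. Named after their values were seen, the others that fell were DNPH1, ADA, NT5C and the mitochondrial deoxyguanosine kinase DGUOK, and the nucleotidase NT5C2 rose. DGUOK passed narrowly (log2 fold change -0.26, limma adjusted p = 0.0478). TK2, the mitochondrial thymidine kinase, likewise named afterwards, did not pass (8.03 ± 0.599 FPKM in shTRMT6 and 8.57 ± 1.16 FPKM in shControl; SD, n = 3 each). CDA was listed at 0 in all libraries. With the GC correction 3 rose and 5 fell, and without shTRMT6 replicate 2 none rose and 5 fell.

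Of 15 genes of pyrimidine synthesis and nucleotide kinases 2 rose and 3 fell (13.3% and 20%), near the 19.3% and 16.1% over all genes tested, with a median log2 fold change of -0.03. CAD, the first enzyme of pyrimidine synthesis, was 1.5-fold lower in shTRMT6 (limma adjusted p = 0.00106), UMPS, the last enzyme of UMP synthesis, 1.46-fold higher (limma adjusted p = 0.00386) and AK1 1.37-fold higher (limma adjusted p = 0.00264). The log2 fold change of CAD was -0.563, and -0.395 with the GC correction, still past the threshold. That of AK1 was 0.458, and 0.628 with the correction. Without shTRMT6 replicate 2, shControl replicate 2 or shControl replicate 3, 1 gene of this list fell; with the GC correction 4 rose and 2 fell, and 3 rose both without shTRMT6 replicate 3 and without shControl replicate 1. Of 14 genes of purine synthesis and salvage 3 rose and 1 fell (21.4% and 7.14%), with a median of 0.02. PFAS was 1.49-fold lower (limma adjusted p = 0.00103) and IMPDH2 1.33-fold higher (limma adjusted p = 0.00607). Their log2 fold changes were -0.55 and 0.41, and with the GC correction -0.38 and 0.51, both still past the threshold. PPAT, the first enzyme of purine synthesis, was 1.3-fold higher (limma adjusted p = 0.0444), with groups that overlapped. The PPAT call ended under 9 of the 17 alternatives. The log2 fold change of 0.36 was 0.13 with the GC correction (limma adjusted p = 0.228, or 0.165 with the replicate block as well). The adjusted p was 0.146 and 0.154 without shTRMT6 replicate 1 or 2, 0.122 and 0.0727 without shControl replicate 1 or 3, 0.113 with no filter on low values, and 0.0524 with median-of-ratios scaling and with no trend in the variance prior. The purine list had 1 gene higher without shTRMT6 replicate 1 or shControl replicate 3, and 4 higher and 2 lower with the replicate block.

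Of 11 genes of the folate cycle, which feeds TYMS, 1 rose and 4 fell (9.09% and 36.4%), with a median of -0.07. The folate carrier SLC19A1 was 1.5-fold lower in shTRMT6 (limma adjusted p = 0.00343) and SHMT2, the mitochondrial serine hydroxymethyltransferase, 1.3-fold lower (limma adjusted p = 0.00985). For SHMT2 the log2 fold change was -0.37, and -0.22 with the GC correction, still past the threshold. For SLC19A1 it was -0.59, and -0.40 with the correction, also past the threshold. MTHFD2 was 1.28-fold higher (limma adjusted p = 0.0165), a call that ended without shTRMT6 replicate 1 or 2 (adjusted p = 0.0834 and 0.0804) and with the GC correction (log2 fold change 0.17 against 0.35, adjusted p = 0.105). The call held with the GC correction and the replicate block together (limma adjusted p = 0.0177). In this list 2 genes fell without any 1 of the shTRMT6 libraries or without shControl replicate 2.

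**Figure D4:**
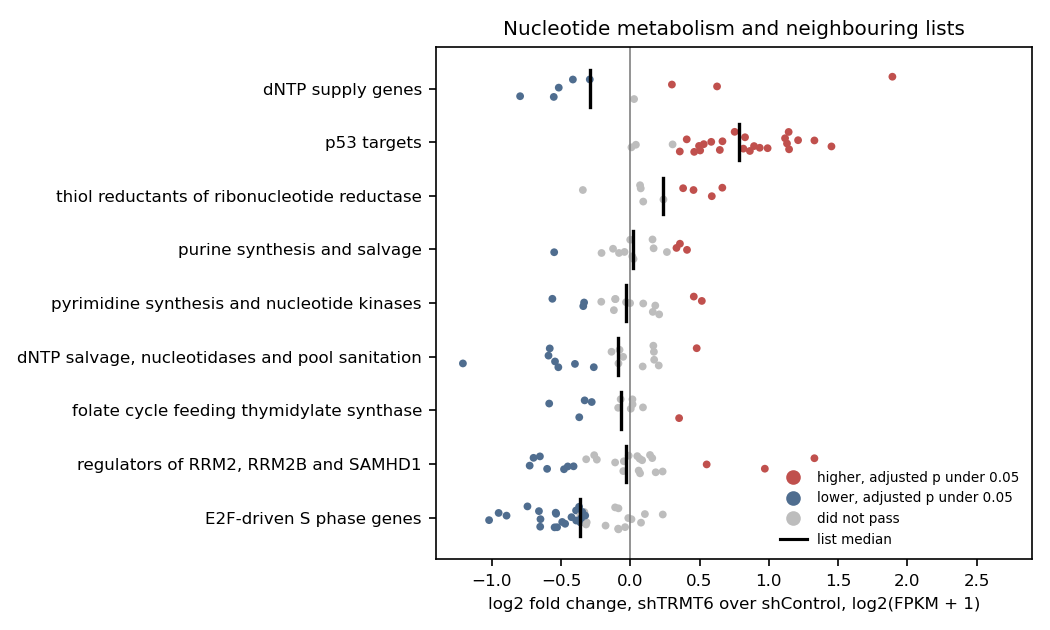
Log2 fold change, shTRMT6 over shControl, of each tested gene (points) in the dNTP supply set and 8 neighbouring lists, with the list median as a black bar; red and blue points passed the test as higher or lower in shTRMT6 and gray points did not. The medians run from -0.36 for the E2F-driven S phase genes to 0.78 for the p53 targets.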

How the data were processed

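RNA sequencing libraries of RKO cells were compared between shTRMT6 (n = 3) and shControl (n = 3). Per the file headers, the authors deposited their gene levels as FPKM, with 1 column for each library. Tools in the submitters' processing notes are HISAT2, RSEM, StringTie (1.3.1), Bowtie2 (2.2.8) and fastp (0.18.0), listed there with no role. The genome build and annotation are not given in the sources used here. Groups came from the sample titles; the columns abbreviate them as NC and SH and were matched by group and replicate number. Gene symbols were matched by identifier to the table of names (20257) or to GENCODE release 29 (30 more). FPKM values are not counts. The 10592 genes whose mean over the libraries reached 1 FPKM were therefore put on the log2(FPKM + 1) scale and fitted with limma (version 3.58.1 in R 4.3.3), using group alone, a variance prior that follows the mean, and Benjamini-Hochberg adjustment over every gene tested; tests were two-sided. This scale understates the change of low genes; folds are ratios of mean FPKM. The fit was tested on simulated data whose scatter was drawn independently for each gene and library. Deviations shared across genes were not simulated, so that test does not cover them.

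The genes, lists and comparisons were chosen with earlier results of these data known. Named were all 9 genes, TRMT6, up to 3 called genes with the largest change per list, 3 regulators, and the 5 genes most like RRM2B or RRM2. Some genes that this rule names are not reported here. Libraries of the same number deviated together from their group means (correlations across genes 0.206, 0.364 and 0.17, other pairs -0.288 to 0.094). The labels do not say what the numbers stand for. The main fit and the permutation tests left this pairing out, and only the replicate block and the sign-flip test took it in. GC content and shared 75-base windows came from GENCODE release 29 transcripts. The depth estimate rests on the spacing of low FPKM values in genes with 1 transcript of at most 1000 bases and is rough. Alternatives were pseudocounts of 0.1 and 0.5, no filter or a mean of at least 5 FPKM, quantile and median-of-ratios scaling, other variance priors, the replicate block, a GC correction, both together, and each library left out.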

Additional observations from a re-analysis of the deposited data

How the results depend on the processing

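RRM2B, SAMHD1, DTYMK, TYMS, TK1 and DUT kept their direction and stayed past the threshold under all 17 alternatives, with log2 fold changes from 1.66 to 1.99 for RRM2B, 0.54 to 0.73 for SAMHD1, -0.83 to -0.62 for DTYMK, -0.61 to -0.50 for TYMS, -0.63 to -0.33 for TK1 and -0.53 to -0.35 for DUT. RRM1 passed under 7 of the 17 and RRM2 under 11. DCK, which never passed, changed sign with quantile normalization (-0.04), median-of-ratios scaling (-0.006) and the GC correction (-0.187, with the replicate block as well); leaving out 1 library gave -0.059 to 0.122. RRM2B minus RRM2 ranged from 2.02 with the GC correction to 2.29 with a pseudocount of 0.1, and from 2.11 to 2.27 with 1 library left out. The replicate block changed no call among the 9 genes and gave the same RRM2B minus RRM2 difference of 2.19 (exact sign-flip p = 0.25, the smallest that 3 pairs allow); over all genes it gave 4954 calls. With 1 library left out, 2407 to 3618 genes passed, 1295 to 2027 of them higher and 1112 to 1731 lower; the lowest totals came without shTRMT6 replicate 2 (2407) and without shTRMT6 replicate 1 (2465). The GC correction gave 4082 calls. Why calls ended was not tested. Leaving out a library leaves a group of 2.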

Other observations

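The ratio of RRM2 to RRM2B had an SD of 0.00987 around a mean of 1.94 in the shTRMT6 libraries; replicate 3 was low for both by 0.15 in log2. In shControl the same ratio was 9.57 ± 1.16 (SD, n = 3). TK1 per DCK was 4.272, 4.204 and 4.277 in shTRMT6 and 8.434, 5.374 and 5.379 in shControl. The transcripts differ in GC content (62.8% for TK1 and 38.8% for DCK), and this ratio is not GC-corrected. The log2 fold changes of TK1 and DCK were -0.52 and 0.03 in the main fit. With the GC correction they were -0.33 and -0.19. DTYMK per TYMS, the enzymes of consecutive steps, was 0.814 ± 0.0619 in shTRMT6 and 0.964 ± 0.0279 in shControl (SD, n = 3 each), without overlap (exact two-sided permutation p = 0.1, the smallest possible). This ratio is not GC-corrected either. The log2 fold changes of DTYMK and TYMS were -0.80 and -0.55 in the main fit, and -0.62 and -0.51 with the GC correction. The last 2 of these ratios were chosen after values were seen.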
